A study of Mus musculus with 10 samples.

Results

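The comparison is that of Atg16l1 knockout (KO) with wild-type (WT) dendritic cells in the libraries that carry the label CD8, which are 5 of the 10 libraries of the series. They were picked out by their titles, and earlier results of these data were known when the comparison was chosen. The WT group has 3 libraries (genotype Atg16l1 +/+) and the KO group 2 (genotype Atg16l1 -/-). All 5 came from the spleens of C57BL/6 mice aged 16 weeks, with individual mice digested and CD11c-positive cells enriched on beads. Per the labels' protocols, the gate was MHC class II high, CD11c high, CD11b-negative and CD8-positive. The series is titled as work on an atherogenesis model, but the labels used here name no diet, second allele, deleted exon, Cre driver or batch. Libraries are named by genotype and number, as WT 1 to 3 and KO 1 and 2.

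Atg16l1 forms a complex with Atg5 and Atg12 that places the lipidation of LC3 and its relatives on the growing autophagosome membrane, so cells without it cannot complete canonical autophagy. Conventional dendritic cells of the spleen fall into type 1 (cDC1), which carry CD8 alpha and the chemokine receptor Xcr1 and are known for cross-presentation, and type 2 (cDC2), which carry CD11b and Sirpa, depend on the transcription factor Irf4 and are known for presentation to CD4 T cells. Autophagy in dendritic cells is known for its part in antigen processing and in the turnover of surface and signalling proteins.

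The RNA in these libraries carried the markers of cDC2, against the label. Cd8a, which encodes CD8 alpha, stood at 1.94, 0.905 and 5.87 CPM (read counts of a gene scaled to the size of the library) in WT 1 to 3 and at 4.69 and 2.70 CPM in KO 1 and 2. Xcr1 stood at 7.99, 9.69 and 11.3 CPM in WT and at 10.5 and 7.14 CPM in KO. In the 5 libraries labelled CD11b the same transcripts reached 448 to 578 CPM and 290 to 442 CPM. Itgam, which encodes CD11b, stood at 77.8, 91.0 and 76.1 CPM in WT against 96.0 and 104 CPM in KO, and Sirpa at 612, 629 and 563 CPM in WT against 625 and 553 CPM in KO. The libraries labelled CD11b held 1.58 to 2.73 CPM of Itgam and 23.9 to 29.2 CPM of Sirpa. The levels of these 4 markers overlapped between genotypes except those of Itgam, which were higher in both KO libraries (log2 fold change 0.29 ± 0.16 SE, edgeR adjusted p = 0.835). The genotype contrast stays within 1 label, so it does not depend on which subset the label names.

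**Figure D1:**
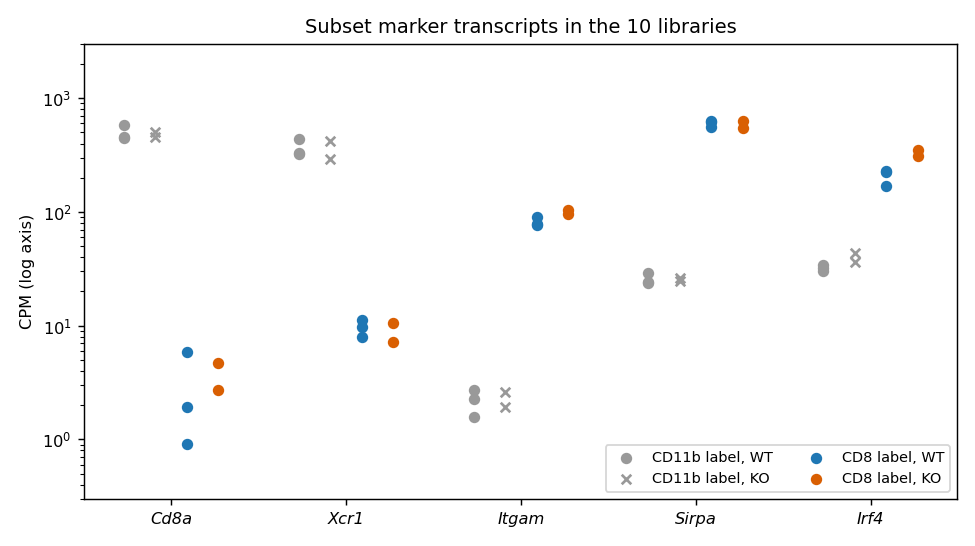
CPM on a log axis of the subset markers Cd8a, Xcr1, Itgam, Sirpa and Irf4 in the 10 libraries, 1 point per library, with grey symbols for the label CD11b and coloured ones for the label CD8. At the label CD8, Cd8a lies between 0.905 and 5.87 CPM and Sirpa between 553 and 629 CPM, the reverse of the label CD11b.

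The 5 libraries held 9467704 to 11787504 gene counts and correlated with each other at 0.972 to 0.979 (Pearson's r of log2 CPM across genes). The first principal component of these 5, with 32.1% of the variance, placed KO 2 at 41.0, KO 1 at 8.51 and the WT libraries at −20.6 to −9.39. Reads that mapped to more than 1 place were 23.6% to 24.6% in WT and 21.7% to 21.9% in KO, and reads counted to genes were 32.2% to 35.1% in WT and 37.8% to 38.6% in KO. The part of these differences in the results was not tested. KO 2 also carried more B cell transcripts than any other library of this label, as described with the marker lists. Nothing in the labels says that replicates of a group came from separate litters or sorts, so the tests measure only the spread between these samples.

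Of the 14528 genes tested across all 10 libraries, 21 passed an edgeR adjusted p of 0.05 between KO and WT (0.145%), 9 of them higher in KO (0.0619%) and 12 lower (0.0826%). These are the genes said here to rise, fall or be called. At an unadjusted p under 0.05 there were 6.52% of all genes, 3.64% higher and 2.88% lower, and the median log2 fold change over all genes was 0.000325. Among all genes tested, 12.1% had both KO libraries above all WT libraries and 11.9% had both below, and all 21 called genes were of 1 of these kinds. The count was 7 without KO 2 and 53 without KO 1, with the same genes tested. The 7 genes called without KO 2 were Slc15a2, Plcb4, Itgad, Odc1, Atg16l1, Lima1 and the pseudogene Gm11942, and each kept its call in all 18 alternative settings.

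The sequences just upstream of the start of 2 called genes are printed here because these genes, a peptide transporter and an interferon-inducible GTPase, fell in KO to near the detection floor. Both come from RefSeq (build GRCm38.p6), run 5′ to 3′ on the strand of the gene and end at the base before its start. Capitals mark matches, on either strand, to any of 7 motifs, namely the interferon-stimulated response element (GAAA, any 2 bases, GAAA), the PU.1-IRF composite element (GGAA, any 2 bases, GAAA), the AP-1 site (TGANTCA), the E-box (CACGTG), the TATA box (TATAAA), the CCAAT box (CCAAT) and the GC box (GGGCGG).
Slc15a2, chr16:36784963-36785212, minus strand: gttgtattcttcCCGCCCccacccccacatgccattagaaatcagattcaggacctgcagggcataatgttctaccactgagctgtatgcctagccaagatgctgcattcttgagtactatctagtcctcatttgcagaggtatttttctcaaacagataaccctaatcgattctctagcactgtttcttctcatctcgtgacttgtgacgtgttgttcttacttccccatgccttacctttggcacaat
Gbp2b, chr3:142594597-142594846, plus strand: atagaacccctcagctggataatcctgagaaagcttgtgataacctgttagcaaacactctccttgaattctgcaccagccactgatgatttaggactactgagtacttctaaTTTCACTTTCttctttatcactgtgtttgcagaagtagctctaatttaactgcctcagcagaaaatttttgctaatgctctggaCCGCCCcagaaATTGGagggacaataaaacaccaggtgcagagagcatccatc
The window of Gbp2b held 1 match to the interferon-stimulated response element, 137 bases before the start, where 2.98% of 32851 RefSeq windows of the same length hold one. It also held 1 GC box and 1 CCAAT box, 53 and 42 bases before the start, motifs found in 32.7% and 33.8% of windows. The Slc15a2 window held 1 GC box, 238 bases before the start, and none of the other 6 motifs. G and C made up 45.2% of the Slc15a2 window and 42.4% of the Gbp2b window. Of the 21 called genes, 12 had an entry in the promoter table.

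Atg16l1 itself (ENSMUSG00000026289, GRCm38 chromosome 1, 87755870 to 87792428), the targeted gene, was low in both KO libraries. It stood at 19.5, 15.2 and 17.5 CPM in WT 1 to 3 and at 1.73 and 3.31 CPM in KO 1 and 2. The groups did not overlap, and the remaining KO signal was 21 and 38 counts. This is a log2 fold change (KO minus WT) with its standard error (SE) of −2.79 ± 0.40, which passed (edgeR adjusted p = 0.00132). Of the small Cajal body RNAs annotated within the span of Atg16l1 on the same strand, named after their values were seen, Scarna6 stood at 4.75, 5.98 and 7.76 CPM in WT and at 1.48 and 0.610 CPM in KO (log2 fold change −2.54 ± 0.72 SE, edgeR adjusted p = 0.274). Gm25395 had 4.32, 4.798 and 1.14 CPM in WT against 0.412 and 1.13 CPM in KO (−2.14 ± 0.82 SE, edgeR adjusted p = 0.610).

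No other member of the LC3 lipidation machinery was called. Of 16 members tested, Atg16l1 was the 1 called, 1 more was higher at an unadjusted p under 0.05 (3.64% of all genes were) and none lower (2.88% of all genes were), and the median log2 fold change was 0.02. Gabarap, an LC3 relative, stood at 96.4, 97.8 and 91.3 CPM in WT and at 117 and 112 CPM in KO (log2 fold change 0.27 ± 0.12 SE, edgeR adjusted p = 0.705). Map1lc3a, Atg7, which activates LC3, and Atg16l2, the paralog of Atg16l1, had −0.59 ± 0.33, 0.34 ± 0.27 and 0.23 ± 0.19 (SE; edgeR adjusted p = 0.831, 0.938 and 0.946). Of 20 genes of autophagy initiation, edgeR, DESeq2 and limma-voom called 0 and 0 had an unadjusted p under 0.05, and the median was 0.00. Among 13 autophagy receptors and their partners 0 were called by the same 3 tools. An unadjusted p under 0.05 was reached by 2, against 6.52% of all genes. These were Tollip (0.48 ± 0.15 SE, edgeR adjusted p = 0.362) and Calcoco1 (−0.51 ± 0.23 SE, edgeR adjusted p = 0.729). Of 25 lysosome genes and targets of the transcription factor TFEB, 0 were called by the 3 tools. The cathepsin genes Ctsb and Ctsh and the saposin precursor Psap had an unadjusted p under 0.05, at 0.34, 0.25 and 0.15. Of all genes, 3.64% were higher at that threshold. In this list 20 of the 25 lay above 0, against 50.0% of all genes.

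Slc15a2 (chromosome 16, 36750177 to 36784962), which encodes the di- and tripeptide transporter PEPT2, fell the most of the called genes with a count in both groups. Its level was 108, 112 and 95.1 CPM in WT 1 to 3, and 0.659 and 1.65 CPM in KO 1 and 2, which held 8 and 19 counts against 1002 to 1236 in WT. The 2 groups were far apart, with a log2 fold change of −6.51 ± 0.27 (SE) at an edgeR adjusted p of 2.60e-13 and −7.29 without KO 2 (edgeR adjusted p = 9.02e-12). The other members of the family that passed the filter on low counts are lysosomal transporters of peptides and histidine. Slc15a3 stood at 225, 292 and 264 CPM in WT and at 254 and 229 CPM in KO (−0.11 ± 0.14 SE, edgeR adjusted p = 0.988). Slc15a4 stood at 96.6, 92.7 and 78.7 CPM in WT and at 91.9 and 94.5 CPM in KO (0.06 ± 0.14 SE, edgeR adjusted p = 1). Both overlapped between genotypes, and 2 of the 5 members did not pass the filter.

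Plcb4 (chromosome 2, 135659011 to 136014593), a phospholipase C beta isoform that G protein-coupled receptors activate through Gq, rose to nearly the same level in both KO libraries. It stood at 13.3, 8.06 and 14.3 CPM in WT and at 124 and 125 CPM in KO. No KO value came near the WT range, and the rise was 3.39 ± 0.18 on the log2 scale (SE; edgeR adjusted p = 2.35e-11). Plcb1, another beta isoform, encoded before Plcb4 on chromosome 2, was low in WT at 0.864, 0.543 and 1.51 CPM and stood at 9.72 and 8.36 CPM in KO. Its groups did not overlap, but the log2 fold change of 3.20 ± 0.89 did not pass (SE; edgeR adjusted p = 0.269), while limma-voom called it. Of 12 phospholipase C genes tested, Plcb4 was the 1 called. Plcg2 and Plcg1, the isoforms downstream of tyrosine kinases, had −0.08 ± 0.09 and 0.15 ± 0.13 SE (edgeR adjusted p = 0.979 and 0.949). Both KO libraries were above WT for 2 of the 12 and below for 1, against 12.1% and 11.9% of all genes. The other 9 overlapped between groups.

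Itgad (chromosome 7, 128154376 to 128223816), which encodes the alpha D chain of a beta-2 integrin, rose from 9.72, 3.71 and 5.87 CPM in WT to 73.6 and 83.9 CPM in KO. Every KO value was above every WT value, and the log2 fold change was 3.62 ± 0.34 (SE; edgeR adjusted p = 1.03e-06). Itgax, the adjacent gene for the CD11c chain that the sort selected on, stood at 1013, 1075 and 924 CPM in WT and at 1341 and 1211 CPM in KO. Its log2 fold change of 0.35 ± 0.09 missed the threshold in edgeR (SE; adjusted p = 0.175) and was called by DESeq2 (adjusted p = 0.0276) and limma-voom. Itgb2, the shared beta chain, and Itgal, the CD11a chain, had −0.11 ± 0.10 and −0.08 ± 0.10 (SE; edgeR adjusted p = 0.964 and 0.988). Of the 5 beta-2 integrin genes, 1 was called.

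Cox6a2 (chromosome 7, 128205435 to 128206387), a subunit of cytochrome oxidase and a marker of plasmacytoid dendritic cells, lies inside the span of Itgad on the opposite strand. It had 0, 9 and 0 counts in WT 1 to 3 and 72 and 102 in KO 1 and 2, which is 0, 0.815 and 0 CPM against 5.93 and 8.88 CPM. It rose by 4.66 ± 0.93 on the log2 scale (SE; edgeR adjusted p = 0.0372), and by 9.39 without WT 2, the 1 WT library with counts. The call ended without WT 1 (edgeR adjusted p = 0.0848), WT 3 (0.157), KO 1 (0.0504) or KO 2 (0.412). 4931431B13Rik, a transcript without a protein on the same strand within Itgad, had 0 counts in WT and 89 in KO, at least 38.8-fold higher against a floor of 3 counts over the WT group (edgeR adjusted p = 0.143, DESeq2 adjusted p = 0.00818). Opposite-strand counts over Itgad itself were 15, 14 and 12 in WT and 286 and 172 in KO, or 16.7%, 34.1% and 19.4% and 32.0% and 17.9% of its own-strand counts. Over all genes the opposite strand held 5.65% to 6.12% of the own-strand counts in these libraries. Opposite-strand counts over Cox6a2 were 1, 0 and 4 in WT and 19 and 35 in KO. The KO values are 26.4% and 34.3% of its own-strand counts. Cox6a2 and 4931431B13Rik lie on the strand opposite to Itgad, and their reads were not separated from the opposite-strand counts of Itgad. Whether the reads of Cox6a2 came from its own transcript was not tested.

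Odc1 (chromosome 12, 17544794 to 17551505), which makes putrescine from ornithine in the first step of polyamine synthesis, fell. It stood at 65.3, 50.3 and 58.1 CPM in WT and at 22.2 and 18.1 CPM in KO, with no overlap. It fell by 1.52 ± 0.15 on the log2 scale (SE; edgeR adjusted p = 4.19e-06). It was the 1 called gene among 15 genes of polyamine synthesis, breakdown and antizyme control. Smox, spermine oxidase, and Srm, spermidine synthase, had 0.39 ± 0.28 and 0.41 ± 0.31 (SE; edgeR adjusted p = 0.908 and 0.926), and Oaz1, the antizyme that targets the Odc1 protein for degradation, had −0.19 ± 0.25 (SE; edgeR adjusted p = 0.990). The median of the list was 0.13.

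Gbp2b (chromosome 3, 142594847 to 142619179), a guanylate-binding protein of the family of interferon-inducible GTPases that act on the membranes of intracellular pathogens, was low in this label and fell further. It stood at 4.64, 11.6 and 7.00 CPM in WT and at 1.24 and 0.435 CPM in KO. The groups were separate, at −3.19 ± 0.48 on the log2 scale (SE; edgeR adjusted p = 0.00205). The call ended without KO 2 (−2.65, edgeR adjusted p = 0.108) and with limma-voom (adjusted p = 0.41), and without KO 1 the log2 fold change was −4.13. Among 8 guanylate-binding proteins tested of 11, the others were not called. Gbp3, also encoded on chromosome 3, stood at 43.7, 65.1 and 72.6 CPM in WT and at 33.8 and 41.7 CPM in KO (−0.68 ± 0.21 SE, edgeR adjusted p = 0.365). Gbp2, Gbp4 and Gbp5 had −0.21 ± 0.20, 0.45 ± 0.23 and 0.47 ± 0.24 (SE; edgeR adjusted p = 0.966, 0.773 and 0.778). Members of this family share near-identical stretches, so counts cover only the stretches unique to a member. Of 30 interferon-stimulated genes, edgeR, DESeq2 and limma-voom called 0, and 1 had an unadjusted p under 0.05 (Usp18, −0.52 ± 0.21 SE, edgeR adjusted p = 0.646), and 15 of the 30 were positive.

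Irf4 (chromosome 13, 30749226 to 30766976), the transcription factor that cDC2 depend on, rose in KO. It stood at 227, 226 and 169 CPM in WT and at 350 and 309 CPM in KO, with no overlap. This is 0.67 ± 0.13 on the log2 scale (SE; edgeR adjusted p = 0.0269). The call ended without WT 3 (0.54, edgeR adjusted p = 0.168), KO 1 (0.58, 0.231) or KO 2 (0.76, 0.108). Irf8, the corresponding factor of cDC1, stood at 181, 166 and 224 CPM in WT and at 165 and 240 CPM in KO (0.09 ± 0.13 SE, edgeR adjusted p = 0.992), which overlap. Irf7 and Irf1 had −0.09 ± 0.14 and 0.19 ± 0.12 (SE; edgeR adjusted p = 0.991 and 0.895). Of the 19 dendritic cell transcription factors tested Irf4 was the 1 called. Klf4, which acts in a part of the cDC2 lineage, had −0.30 ± 0.12, Nfil3 0.31 ± 0.11, Id2 0.38 ± 0.14 and Relb −0.24 ± 0.11 (SE; edgeR adjusted p = 0.635, 0.541, 0.553 and 0.712).

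Irf4 was also the 1 called gene among 24 cDC2 markers. The list's median was −0.13, with 8 members positive. Both KO libraries were above WT for 4 members and below WT for 8, against 12.1% and 11.9% of all genes. The list's summed level was 2950 to 3214 CPM in WT against 3273 and 2903 CPM in KO, so the groups overlapped. Clec4a4, a C-type lectin of cDC2, had 49.5, 59.6 and 51.8 CPM in WT against 37.1 and 32.6 CPM in KO (−0.62 ± 0.30 SE, edgeR adjusted p = 0.760). Among 22 cDC1 markers the 3 tools edgeR, DESeq2 and limma-voom called 0. At an unadjusted p under 0.05 there were 5, against 6.52% of all genes. Among these the endocytic receptor gene Ly75 had 0.45 ± 0.12, Cxcl9 0.65 ± 0.17, Naaa −0.32 ± 0.13 and Tlr3 −0.40 ± 0.17 (SE; edgeR adjusted p = 0.196, 0.210, 0.635 and 0.654).

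**Figure D2:**
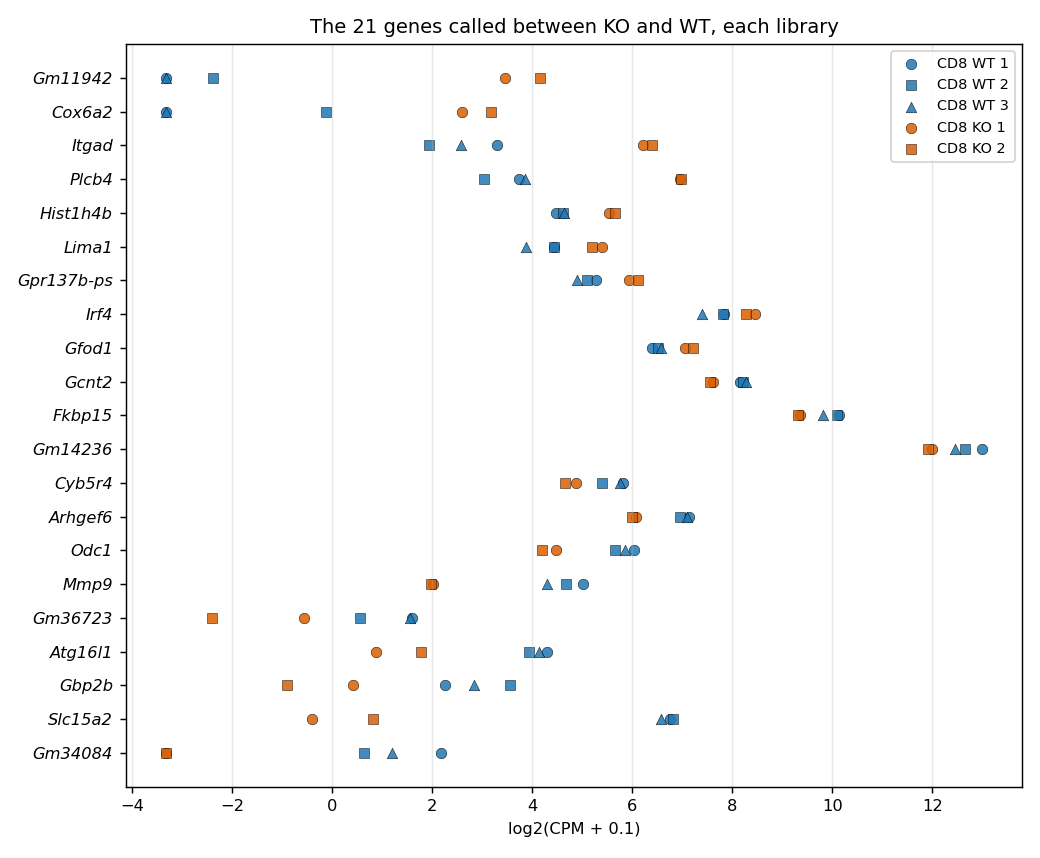
log2(CPM + 0.1) of the 21 called genes in each of the 5 libraries labelled CD8, blue for WT and orange for KO, with the symbol giving the replicate. In each row the 2 KO points lie on 1 side of the 3 WT points, from Gm11942 and Cox6a2 at the top, higher in KO, to Slc15a2 and Gm34084 at the bottom, lower in KO.

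Mmp9 (chromosome 2, 164940780 to 164955850), the gelatinase that cleaves collagen type IV, fell from 32.1, 25.4 and 19.4 CPM in WT to 3.95 and 3.83 CPM in KO (log2 fold change −2.72 ± 0.41 SE, edgeR adjusted p = 0.00211; 0.104 without KO 2). Of 14 metalloproteases and inhibitors it was the 1 called. Adam8, Adam17, the sheddase of TNF, and Mmp25 stood on the other side with 0.40 ± 0.10, 0.34 ± 0.12 and 0.66 ± 0.28 (SE; edgeR adjusted p = 0.196, 0.560 and 0.661).

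Arhgef6 (chromosome X, 57231485 to 57338729), alpha-PIX, an exchange factor for Rac and Cdc42, stood at 141, 123 and 137 CPM in WT and at 66.8 and 63.8 CPM in KO. It fell by 1.03 ± 0.16 on the log2 scale (SE; edgeR adjusted p = 0.00211; 0.108 without KO 2). Its partners in the PIX, PAK and Rac module did not pass, with Git2 at −0.16 ± 0.11, Pak2 at −0.13 ± 0.10 and Rac2 at 0.12 ± 0.11 (SE; edgeR adjusted p = 0.898, 0.944 and 0.948), and 1 of 11 members was called. Lima1 (chromosome 15, 99778470 to 99875456), which encodes the actin-bundling protein EPLIN, stood at 21.6, 21.5 and 14.6 CPM in WT and at 41.7 and 36.2 CPM in KO. It rose by 1.02 ± 0.16 (SE; edgeR adjusted p = 0.00325).

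Fkbp15 (chromosome 4, 62300342 to 62360548), which binds actin on early endosomes, stood at 1122, 1089 and 898 CPM in WT and at 653 and 640 CPM in KO. Its log2 fold change was −0.68 ± 0.13 (SE; edgeR adjusted p = 0.0189), and the call ended without WT 1 (0.0609), WT 2 (0.0919), KO 1 (0.09) or KO 2 (0.315). Gcnt2 (chromosome 13, 40859754 to 40960892), which adds branches to poly-N-acetyllactosamine chains, stood at 284, 296 and 312 CPM in WT and at 195 and 187 CPM in KO. It had −0.64 ± 0.10 (SE; edgeR adjusted p = 0.00211; 0.108 without KO 2). Neither gene overlapped between groups. Cyb5r4 (chromosome 9, 87022014 to 87077774), a cytochrome b5 reductase of the endoplasmic reticulum, had 55.8, 41.6 and 53.7 CPM in WT against 29.4 and 24.997 CPM in KO. Its log2 fold change of −0.89 ± 0.18 was the called value with the largest adjusted p (SE; edgeR adjusted p = 0.0416), and the call ended without WT 1 (0.102), WT 3 (0.169), KO 1 (0.0763) or KO 2 (0.696).

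Gfod1 (chromosome 13, 43195245 to 43304172), which encodes an oxidoreductase domain protein, had 83.8, 91.6 and 94.5 CPM in WT against 132 and 149 CPM in KO. It rose by 0.64 ± 0.11 (SE; edgeR adjusted p = 0.0114), a call that ended without WT 1 (0.0609) or KO 2 (0.374). Hist1h4b (chromosome 13, 23757013 to 23757409), 1 of the near-identical histone H4 genes, had 22.1, 24.4 and 24.7 CPM in WT against 46.1 and 50.5 CPM in KO. It rose by 1.02 ± 0.20 (SE; edgeR adjusted p = 0.0269), and the call ended without any 1 of WT 1 (0.0832), WT 2 (0.0861), WT 3 (0.103), KO 1 (0.069) or KO 2 (0.412). The other 10 histone H4 genes tested were not called, and reads shared among these copies could not be assigned. Among 30 genes of the cell cycle, edgeR, DESeq2 and limma-voom each called 0, and 0 had an unadjusted p under 0.05.

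The 5 called genes without a protein product were low or close to other copies, apart from Gm14236. Gm14236 (chromosome 2, 168010529 to 168011506), a transcript annotated as antisense, stood at 8127, 6426 and 5600 CPM in WT and at 4081 and 3876 CPM in KO, and fell by 0.76 ± 0.11 on the log2 scale (SE; edgeR adjusted p = 0.00132; 0.0790 without KO 2). Gm11942 (chromosome 4, 32964888 to 32965232), a processed pseudogene, had 336 counts in KO and 1 in WT, a ratio of 439 with an exact 95% counting interval of 78.3 to 17390 (edgeR adjusted p = 1.21e-07). Processed pseudogenes share sequence with a parent gene, so this value is uncertain. Gm34084 (chromosome 13, 44472426 to 44504548), a long intergenic RNA, had 41, 16 and 23 counts in WT and 0 in both KO libraries, at least 20.4-fold lower against a floor of 3 counts over the KO group (edgeR adjusted p = 0.0250). Its call ended without WT 1 (0.0609), KO 1 (0.136) or KO 2 (0.361) and with limma-voom (0.182). Gm36723 (chromosome 12, 25303940 to 25471979), also intergenic, had 2.92, 1.36 and 2.84 CPM in WT against 0.577 and 0.0871 CPM in KO, and fell by 2.75 ± 0.48 on the log2 scale (SE; edgeR adjusted p = 0.00986), at −4.58 without KO 1 and −1.996 without KO 2 (edgeR adjusted p = 0.361), and an adjusted p of 0.0604 without WT 3, 0.448 with limma-voom and 0.424 in edgeR on the 5 libraries alone. Gpr137b-ps (chromosome 13, 12615057 to 12650388), a transcribed pseudogene of a lysosomal membrane protein gene, had 38.8, 34.1 and 29.4 CPM in WT against 61.0 and 69.1 CPM in KO, and rose by 0.93 ± 0.16 (SE; edgeR adjusted p = 0.00823), and lost its call without WT 3 (0.0712) or KO 2 (0.312).

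**Figure D3:**
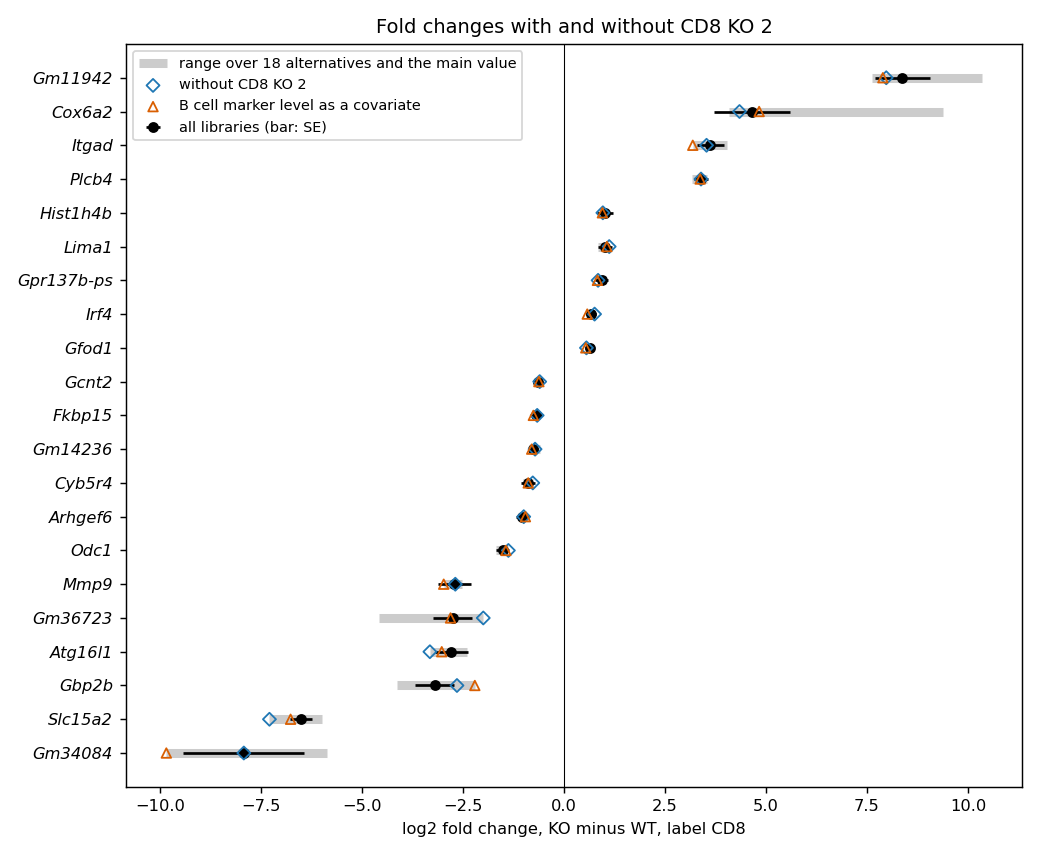
log2 fold change, KO minus WT, of the 21 called genes, with black points and bars for the value and its SE, blue diamonds without KO 2, orange triangles with the B cell marker level as a covariate, and grey bars for the range over the 18 alternatives and the value itself. All 21 stay on their side of 0, from Gm11942 to Gm34084, whose fitted values rest on a group with 1 or 0 counts and are no bound.

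DESeq2 called 54 of 13118 genes (0.412%) and limma-voom, here always run with a quality weight per library, 63 of 14528 (0.434%). The 5 uncalled genes with the smallest edgeR p were Wtap, Ly6e, Serpinb6b, Hmox1 and Heg1, with adjusted p of 0.0511, 0.0569, 0.0647, 0.0647 and 0.0663 in edgeR, and DESeq2 called each. Wtap, a subunit of the RNA m6A methyltransferase, stood at 164, 151 and 159 CPM in WT and at 104 and 89.5 CPM in KO (log2 fold change −0.71 ± 0.15 SE, DESeq2 adjusted p = 0.00301). Ly6e, an interferon-inducible surface protein, stood at 287, 259 and 250 CPM in WT and at 343 and 435 CPM in KO (0.55 ± 0.12 SE, DESeq2 adjusted p = 0.00275). Both had groups that did not overlap. Hmox1, which degrades heme, had 46.8, 53.1 and 37.4 CPM in WT against 66.4 and 86.0 CPM in KO (0.74 ± 0.16 SE, DESeq2 adjusted p = 0.0166).

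Further genes called by DESeq2 and not by edgeR, with non-overlapping groups, included Pla2g7, the phospholipase that hydrolyses platelet-activating factor, at 30.6, 34.9 and 26.9 CPM in WT against 61.8 and 55.8 CPM in KO (0.93 ± 0.21 SE, DESeq2 adjusted p = 0.0194). Apoe, the apolipoprotein that carries cholesterol out of macrophages, stood at 407, 341 and 284 CPM in WT and at 499 and 528 CPM in KO (0.58 ± 0.13 SE, edgeR adjusted p = 0.0780, DESeq2 adjusted p = 0.0122). Both were higher in each KO library than in any WT library. Hic1, a transcriptional repressor, was lower in KO at 144 and 75.9 CPM against 195, 207 and 183 CPM (−0.82 ± 0.18 SE, DESeq2 adjusted p = 0.00992), and Nrg2, a neuregulin, at 1.40 and 2.18 CPM against 5.94, 4.16 and 6.34 CPM (−1.61 ± 0.36 SE, DESeq2 adjusted p = 0.0171). Nav2, Rasgrp3, Tent5c, Heg1 and Serpinb6b were on the higher side, with log2 fold changes of 0.87, 0.89, 0.42, 0.66 and 0.70, and Gpr141b on the lower side with −0.80.

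Of 14 genes of the liver X receptor (LXR) pathway and sterol efflux, 0 were called by edgeR, 1 by DESeq2 (Apoe) and 2 by limma-voom (Apoe and Nr1h3). At an unadjusted p under 0.05, 3 were higher, against 3.64% of all genes, and 0 lower. Nr1h3, which encodes LXR alpha, stood at 10.7, 8.69 and 6.62 CPM in WT and at 18.4 and 22.6 CPM in KO (1.24 ± 0.40 SE, edgeR adjusted p = 0.419). Scd1, a fatty acid desaturase, was high in KO 2 alone, at 138 CPM against 56.6 CPM in KO 1 and 48.5 to 60.9 CPM in WT. Of 19 genes of sterol synthesis under SREBP, edgeR, DESeq2 and limma-voom called 0, and 0 had an unadjusted p under 0.05. Of 14 targets of NRF2, the oxidative stress factor, Hmox1 was the 1 with an unadjusted p under 0.05, called by DESeq2 and limma-voom and not by edgeR, and 11 of the 14 lay above 0.

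No gene of antigen presentation was called by edgeR. Of 14 MHC class II presentation genes, edgeR and DESeq2 called 0 and limma-voom 1, H2-Ab1, the class II beta chain. H2-Ab1 stood at 7999, 7954 and 7383 CPM in WT and at 7152 and 6396 CPM in KO (−0.20 ± 0.07 SE, edgeR adjusted p = 0.479), and 11 of 14 members had a negative log2 fold change. Of 20 MHC class I presentation genes, none passed in edgeR, DESeq2 or limma-voom (0 of 20). At an unadjusted p under 0.05, 3 were higher, against 3.64% of all genes. These were Nlrc5, the class I transactivator, H2-K1 and Cd1d1, with 0.40 ± 0.11, 0.20 ± 0.08 and 0.52 ± 0.23 (SE; edgeR adjusted p = 0.210, 0.673 and 0.699). Of the 20, 10 had both KO libraries above WT, against 12.1% of all genes, and 1 had both below, against 11.9%. The median was 0.14.

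Of 20 costimulatory and checkpoint genes, edgeR, DESeq2 and limma-voom called 0. An unadjusted p under 0.05 was reached by 4, against 6.52% of all genes. Cd83 had −0.30 ± 0.10, Cd40 0.42 ± 0.16, Cd80 0.31 ± 0.12 and Cd274, which encodes PD-L1, 0.27 ± 0.13 (SE; edgeR adjusted p = 0.453, 0.576, 0.635 and 0.757). Of 24 cytokines and chemokines, 0 were called by edgeR or limma-voom and 1 by DESeq2 (Il6). At an unadjusted p under 0.05 there were 6, against 6.52% of all genes. Il6 was low in WT at 0.864, 0.905 and 0.473 CPM and stood at 4.86 and 5.66 CPM in KO (2.80 ± 0.66 SE, edgeR adjusted p = 0.115, DESeq2 adjusted p = 0.0226). The KO values of Il6 were all above WT. Il12b, the p40 chain of IL-12, had 0.62 ± 0.18 and Ccl6 −0.64 ± 0.20 (SE; edgeR adjusted p = 0.289 and 0.380).

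Of 19 genes that mark mature dendritic cells, 0 were called by edgeR or limma-voom and 1 by DESeq2 (Cacnb3). At an unadjusted p under 0.05, 8 were higher, against 3.64% of all genes, and 1 lower. The median log2 fold change was 0.30, or 0.40 without KO 2, when 5 were higher at an unadjusted p under 0.05 against 2.20% of all genes. Cacnb3, a calcium channel subunit, stood at 42.6, 48.4 and 41.5 CPM in WT and at 67.0 and 82.3 CPM in KO (0.76 ± 0.18 SE, edgeR adjusted p = 0.123, DESeq2 adjusted p = 0.0439). Ccr7, the receptor for migration to the T cell zone, stood at 502.1, 453 and 456 CPM in WT and at 577 and 579 CPM in KO (0.30 ± 0.11 SE, edgeR adjusted p = 0.567). Cd200 had 5.83, 6.61 and 7.29 CPM in WT against 12.7 and 11.2 CPM in KO (0.86 ± 0.28 SE, edgeR adjusted p = 0.423). None of these 3 overlapped between groups, but the summed level of the list did not differ as clearly, at 2848 to 3047 CPM in WT against 3210 and 3048 CPM in KO.

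Immediate early genes, which respond quickly to stimulation and to tissue dissociation, lay on the lower side in KO. Of 25 tested, 0 were called by edgeR, 2 by DESeq2 (Nr4a2 and Fosl2) and 4 by limma-voom (these 2 with Fosb and Btg2), and 24 had a negative log2 fold change. At an unadjusted p under 0.05, 13 were lower, against 2.88% of all genes, and the median was −0.29. Without KO 2 the median was −0.16, with 3 lower at an unadjusted p under 0.05 (1.53% of all genes) and 4 positive. Nr4a2, an orphan nuclear receptor, stood at 1075, 1097 and 1046 CPM in WT and at 847 and 782 CPM in KO (−0.40 ± 0.09 SE, edgeR adjusted p = 0.0727, DESeq2 adjusted p = 0.00204). Fosb stood at 3408, 2817 and 3007 CPM in WT and at 2544 and 2272 CPM in KO (−0.35 ± 0.10 SE, edgeR adjusted p = 0.269). Both were lower in each KO library. The summed level was 28663, 24277 and 23710 CPM in WT against 22448 and 19553 CPM in KO, with both KO libraries below all WT libraries.

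**Figure D4:**
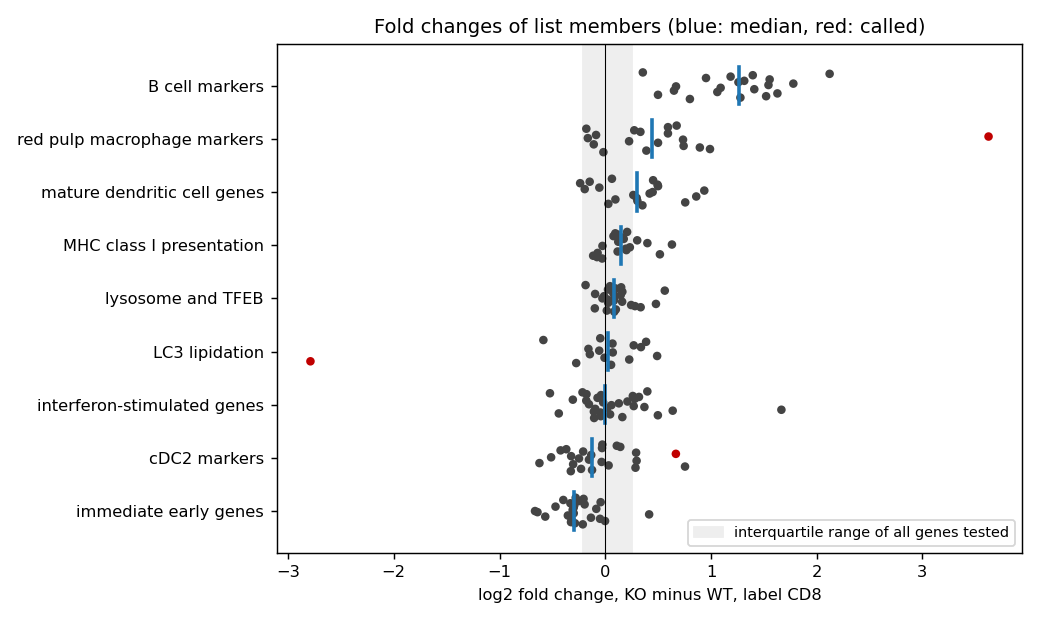
log2 fold change, KO minus WT, of the tested members of 9 gene lists, 1 point per gene, red where called, with a blue line at each list's median and a grey band for the interquartile range of all genes tested. The B cell markers have a median of 1.27 with 0 called, and the immediate early genes lie mostly to the left of 0 with a median of −0.29.

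B cell transcripts were highest in KO 2. The 21 B cell markers, of which 20 passed the filter, summed to 1330, 873 and 697 CPM in WT 1 to 3, to 1176 CPM in KO 1 and to 3193 CPM in KO 2, so KO 1 lay within the WT range. No member was at 0 in all 5 libraries. Ighm and Igkc, the immunoglobulin mu and kappa constant genes, stood at 535, 325 and 193 CPM and at 225, 142 and 104 CPM in WT, at 504.1 and 224 CPM in KO 1 and at 1242 and 697 CPM in KO 2. Both genes lay within the WT range in KO 1 and above it in KO 2. All 20 tested had a positive log2 fold change, with a median of 1.27. At an unadjusted p under 0.05, 15 were higher, against 3.64% of all genes. By edgeR and DESeq2 0 were called, and 2 by limma-voom (Ighm and Igkc). Without KO 2 the median was 0.04, 10 of 20 were positive and 0 had an unadjusted p under 0.05. Without KO 1 the median was 1.87 and all 20 were positive, and the larger count of calls in that setting included members of this list. In bulk RNA, more cells of a type and more RNA per cell cannot be told apart.

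Plasma cell markers followed the same libraries, with 162, 181 and 150 CPM in WT, 184 CPM in KO 1 and 361 CPM in KO 2, and a median over 11 genes of 0.82, or 0.21 without KO 2. By edgeR, DESeq2 and limma-voom 0 of the 11 were called. At an unadjusted p under 0.05, 5 were higher, against 3.64% of all genes. Ighg2b had 12.3, 16.0 and 2.55 CPM in WT, 14.4 CPM in KO 1 and 88.5 CPM in KO 2.

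The 21 calls were read against these transcripts directly. With the log2 of the summed B cell markers as a covariate 11 of the 21 kept their call, namely the 7 that held without KO 2 and Mmp9, Gm14236, Gm34084 and Gm36723. Slc15a2 then had −6.77, Plcb4 3.37, Itgad 3.19, Odc1 −1.44, Lima1 1.06 and Mmp9 −2.98. The 10 calls that ended were those of Irf4 (0.58, edgeR adjusted p = 0.548), Gbp2b (−2.21, 0.0585), Arhgef6 (−0.95, 0.0871), Gcnt2 (−0.62, 0.0871), Fkbp15 (−0.76, 0.0871) and Hist1h4b (0.95, 0.510), beside Cox6a2 (4.83, 0.291), Gfod1 (0.54, 0.53), Gpr137b-ps (0.83, 0.343) and Cyb5r4 (−0.88, 0.428). Of these, Fkbp15 and Cox6a2 lay farther from 0 than without the covariate (−0.68 and 4.66), and the others nearer. What ended each call was not tested. Each of the 21 kept its direction. Leaving out all immunoglobulin genes gave 23 calls. None of the 21 is such a gene, so this setting cannot show the part of B cell RNA in their levels.

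**Figure D5:**
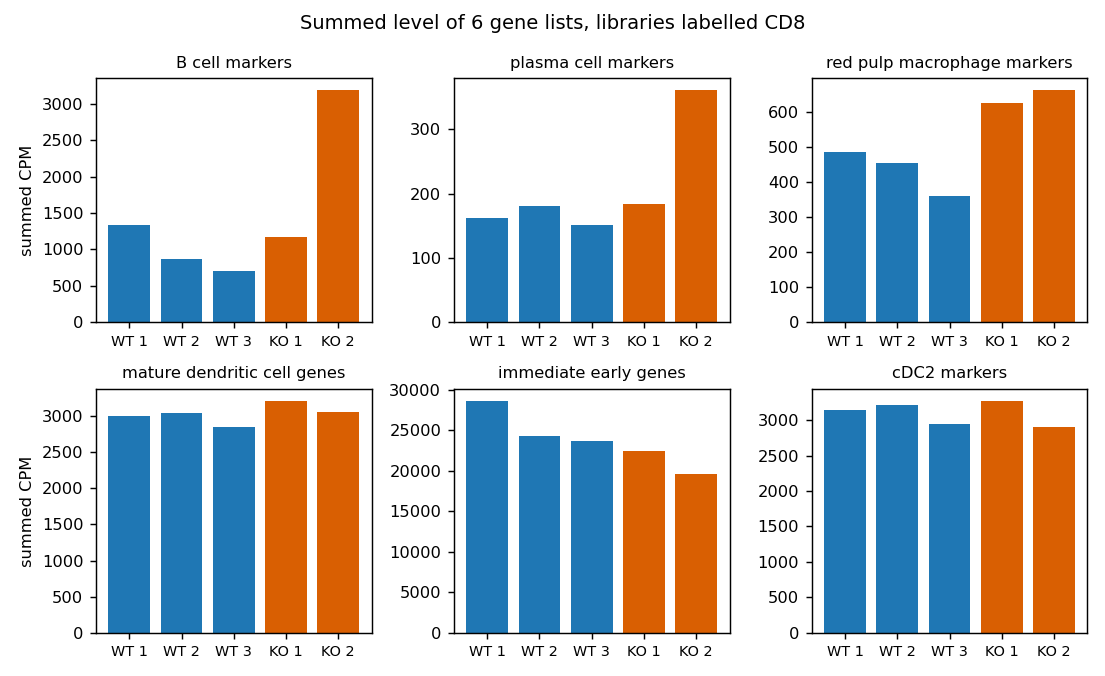
Summed CPM of 6 gene lists in the 5 libraries labelled CD8, 1 bar per library, blue for WT and orange for KO, each panel with its own axis from 0. KO 2 stands alone for B cell markers at 3193 CPM, while both KO libraries lie above WT for red pulp macrophage markers and below WT for immediate early genes.

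Red pulp macrophages, the heme-recycling cells of the spleen, express Itgad and Hmox1 among their own markers. The 18 markers summed to 485, 453 and 358 CPM in WT and to 624 and 662 CPM in KO, so the groups did not overlap. Of the 18, 1 was called by edgeR (Itgad), 2 by DESeq2 (with Hmox1) and 4 by limma-voom (with C1qa and C1qb as well). At an unadjusted p under 0.05, 6 were higher, against 3.64% of all genes, and 0 lower. The log2 fold change was positive for 13 and negative for 5. Both KO libraries were above WT for 9, against 12.1% of all genes. The median was 0.44, or 0.31 without KO 2. With the B cell covariate the median was 0.178 and 10 of the 18 were positive. C1qb, a chain of complement C1q, stood at 25.6, 26.3 and 21.5 CPM in WT and at 42.6 and 48.4 CPM in KO (0.89 ± 0.25 SE, edgeR adjusted p = 0.267). Vcam1 had 38.3, 38.3 and 37.5 CPM in WT against 58.1 and 56.6 CPM in KO (0.59 ± 0.17 SE, edgeR adjusted p = 0.309). Itgad and Hmox1 are part of this sum. Without Itgad the other 17 summed to 475, 449 and 352 CPM in WT and to 551 and 578 CPM in KO, and without Hmox1 as well the other 16 summed to 428, 396 and 315 CPM in WT and to 484 and 492 CPM in KO. The groups did not overlap in either sum, and the part of these cells in the levels of Itgad, Hmox1 and Apoe was not tested. No red pulp macrophage marker was at 0 in all 5 libraries.

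Summed markers of other cells were low or overlapped between genotypes, except those of neutrophils, where Mmp9 carried the difference. T cell markers summed to 21.2 to 30.7 CPM, NK cell markers to 53.4 to 62.9 CPM and erythroid and platelet markers to 3.56 to 18.5 CPM in the 5 libraries. The 14 neutrophil markers summed to 39.7 to 49.1 CPM in WT and to 24.1 and 24.9 CPM in KO, and of the 4 that passed the filter Mmp9 fell. Without Mmp9 the other 13 summed to 17.1, 19.7 and 20.3 CPM in WT and to 20.9 and 20.3 CPM in KO. Monocyte markers summed to 471 to 570 CPM in WT against 479 and 480 CPM in KO. By edgeR, DESeq2 or limma-voom 0 of 11 were called. An unadjusted p under 0.05 was reached by 3, against 6.52% of all genes. The monocyte gene Fn1 had 48.7, 18.02 and 22.2 CPM in WT against 15.7 and 7.58 CPM in KO (−1.34 ± 0.45 SE, edgeR adjusted p = 0.476). The 14 plasmacytoid dendritic cell markers summed to 378 to 430 CPM in WT against 412 and 445 CPM in KO, and Cox6a2 was the 1 called.

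Set beside the libraries labelled CD11b, fitted with the same model, 8 of the 21 genes (38.1%) were also called there, which is 38.1% of the 21 genes called at that label, where the share called was again 0.145%. The 8 were Slc15a2, Gm11942, Itgad, Odc1, Atg16l1, Gbp2b, Arhgef6 and Gcnt2, each in the same direction. The model treated all libraries as independent. Whether those of the 2 labels came from the same mice was not tested, so the 2 sets of calls may not be independent. The difference between the genotype effects of the 2 labels passed edgeR's test for 1 of the 21, Plcb4, out of 3 genes overall (0.0206%). Plcb4 had a log2 fold change of 0.77 at the label CD11b (edgeR adjusted p = 0.0530), where WT already stood at 66.4 CPM. Lima1 came next, with −0.20 there and an adjusted p of 0.0523 for the difference in edgeR.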

How the data were processed

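RNA of splenic dendritic cells was sequenced in 10 libraries, of which the 5 labelled CD8 are compared here by genotype. Per the labels' protocols, 7 ng of total RNA went into stranded libraries without molecular identifiers stated. STAR 2.5.0a and the build GRCm38 are named in the submitters' processing notes. The authors deposited unnormalized counts for 53379 genes, unstranded and for each strand. Trimming, duplicate handling and the annotation release are not given in the sources used here. Multimapping reads were not counted.

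Counts of the strand holding most reads were used, and 4 lines of unassigned reads dropped (no-gene reads were 37.5% to 41.4%). GENCODE M21 named 53274 identifiers and 105 were not found. CPM used TMM-scaled sizes. edgeR 4.0.16 (filterByExpr by group, quasi-likelihood test, 4 group means over all 10 libraries, Benjamini-Hochberg over 14528 genes, two-sided, called under 0.05) gave the main values, and SEs were derived from log2 fold changes and F statistics. DESeq2 1.42.0, limma-voom with quality weights per library (limma 3.58.1) and the other settings below were alternatives (R 4.3.3, Python 3.11.15). Intervals and floors cover counting error only. Gene counts of 9467704 to 11787504 per library set the precision.

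The libraries and lists (615 entries, 1 not matched) were chosen with earlier results of these data known. Named were Atg16l1, the subset markers, all edgeR calls, up to 15 DESeq2-only genes of at least 1 CPM with non-overlapping groups, the 5 nearest uncalled genes, and per list the called members and up to 4 others of smallest p, with the Cajal body RNAs and members of the small gene families added after their values were seen. The fit was tested on simulated counts. A few list members are not reported here.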

Additional observations from a re-analysis of the deposited data

Results flagged for a closer look

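The genotype effect on Plcb4 differed between the 2 subset labels. Its log2 fold change was 2.62 larger at the label CD8 (3.39) than at the label CD11b (0.77), by a test of the difference itself in edgeR (SE 0.24, adjusted p = 4.72e-06). Both KO libraries labelled CD8 stood above all 3 WT libraries of that label.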

How the results depend on the processing

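Of 378 values of the 21 called genes over 18 settings, 319 kept direction and call, 59 lost the call and 0 reversed. The count of 21 (9 higher, 12 lower) became 142 (84 and 58) with no filter on low counts, where 31563 genes were tested, 54 (32 and 22) with DESeq2, 63 (29 and 34) with limma-voom and 63 (29 and 34) in a fit on the 5 libraries alone, which tested 13063 genes and kept 20 of the 21 calls. With the B cell marker level as a covariate it was 11 (4 and 7). Leaving out 1 library labelled CD8 gave 7 to 53 calls, 4 to 38 higher and 3 to 15 lower, with 7 (4 and 3) without KO 2 and 53 (38 and 15) without KO 1; a lone KO library is assumed to vary like the other groups. Leaving out WT 1 of the label CD11b, which holds the most detected genes, gave 32 (14 and 18), and leaving out that library and KO 2 gave 14 (5 and 9), both chosen after seeing the data. RLE size factors, a filter at 1 CPM, unstranded counts and removal of mitochondrial and ribosomal RNA or immunoglobulin genes gave 21 to 24. Between genotypes, libraries with numbers 1 and 2 had correlations of deviations of −0.0494 and −0.0375 at the label CD8. At the label CD11b these were 0.0606 and 0.0183. So few libraries cannot show whether the replicate numbers pair the genotypes. Between the 2 labels, libraries of 1 genotype with the same number had 0.0613, 0.0329 and 0.0562 in WT and 0.0623 in KO. Those with different numbers had negative values. Deviations were centred within each group, which ties these signs to the same-number values, so the contrast is no separate result. Whether the 2 labels share mice was not tested. A replicate block gave 26 calls (10 and 16) and ended that of Cyb5r4 (edgeR adjusted p = 0.0561). The cause of these changes was not tested.

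Of 1864 values of 104 other named genes, 124 passed the threshold under a setting and 19 reversed. With the B cell covariate Pou2af1 had −0.19, Cd79a −0.16, Irf7 0.065, Irf8 −0.076, Slc15a3 0.12 and Ighg2b −0.023. Pou2af1 and Cd79a are part of the sum that made the covariate, so their reversals are no separate result. With 1 library left out Cd79a ranged from −0.037 to 2.38, Irf8 from −0.20 to 0.34, Ighg2c from −0.42 to 3.29 and Pacsin1 from −0.28 to 1.97, lowest without KO 2 and the same with WT 1 of the label CD11b left out as well. Gbp2 ranged from −0.60 to 0.11 and Paox from 1.58 to −0.24, reversed without KO 1. Irf7 ranged from −0.22 to 0.026 and Slc15a4 from 0.12 to −0.022, reversed without WT 3, and Irf7 had 0.031 with the replicate block. Depth limits genes such as Cox6a2, Gm34084 and Gm36723, which had at most 102 counts in any library labelled CD8.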

Other observations

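Of the 21 genes called at the label CD8, 6 (28.6%) lay on chromosome 13, which held 583 of the 14528 genes tested (4.01%). With DESeq2 it was 9 of 54 (16.7%). In order along the chromosome the 6 were Gpr137b-ps (12615057 to 12650388), Hist1h4b (23757013 to 23757409), Irf4 (30749226 to 30766976), Gcnt2 (40859754 to 40960892), Gfod1 (43195245 to 43304172) and Gm34084 (44472426 to 44504548). Of these, Gpr137b-ps, Hist1h4b, Irf4 and Gfod1 were higher in KO and Gcnt2 and Gm34084 lower. None of the 6 is among the genes, named above, that kept their call in all 18 alternative settings. The shared chromosome was noticed after the calls were seen.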
